A study of Mus musculus with 5 samples.

Results

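Myelin is the layered membrane that glial cells wrap around axons. Outside the brain and spinal cord it is made by Schwann cells, and in the front of the eye these cells accompany the sensory and autonomic nerves that enter the limbus, the ring where cornea and sclera meet. Pmp22 and Mbp are proteins of compact myelin, while Mag, Cnp and periaxin (Prx) belong to the uncompacted parts of the sheath. Several myelin proteins are also made by other cells.

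The genes described here are Mbp, Pmp22, Prx, Mag, Mal and Cnp, 6 of the 56941 identifiers in the table, taken as a list of myelin protein genes by symbol. All 6 reached the minimum of 10 counts in 1 pool or more, as did 19713 genes in all, the set that was tested. RNA came from the iridocorneal angle, the ring between iris and cornea that drains aqueous humor, of untreated mice aged 12 months, labelled as male and female. The DBA/2J group had 3 pools, and these mice carry the mutant Tyrp1 b and Gpnmb R150X alleles and develop pigmentary glaucoma. The Gpnmb+ group (DBA/2J-Gpnmb+/SjJ) had 2 pools, with the functional Gpnmb allele and the same Tyrp1 b allele. The design text gives 3 mice for every pool, while the library names list 3 animals for each DBA/2J pool and 2 for each Gpnmb+ pool. Iris and ciliary body were cut away in the dissection, and some remnants of both stayed on the ring.

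Total counts per pool ran from 43900661 to 49837758. Gpnmb ranged from 1946 to 2234 counts in DBA/2J and stood at 110568 and 129659 in Gpnmb+, in the direction of the labels. Myoc, a gene strongly transcribed in the trabecular meshwork, counted 7106, 13989 and 9514 reads in DBA/2J against 22068 and 26147 in Gpnmb+, lower in each DBA/2J pool (log2 fold change -1.06, adjusted p = 0.165 in edgeR). The Y-linked Ddx3y ranged from 1567 to 4168 counts in DBA/2J against 0 and 4 in Gpnmb+, and Xist from 0 to 2417 against 7843 and 9152. The near absence of Ddx3y from the Gpnmb+ pools goes against the label of male and female mice, and the sex makeup of the pools and the genotype cannot be told apart for any gene below.

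None of the 6 myelin genes was called different between the genotypes by edgeR (quasi-likelihood test, Benjamini-Hochberg adjusted p up to 0.05, fold change from 1.5 upward). DESeq2 and limma-voom also called 0 of 6. Across all genes tested, 0.796% were called by edgeR, 0.294% as lower and 0.502% as higher in DBA/2J, while DESeq2 called 4.7% and limma-voom 0.964%. At an unadjusted p under 0.05, 3 of the 6 passed (Prx, Mal and Cnp), against 15.9% of all genes. Mbp, Prx, Mag and Mal had values below 0, meaning a lower level in DBA/2J, and Pmp22 and Cnp had values above 0. The median log2 fold change of the 6 was -0.23, against -0.02 over all genes tested. Pools of the 2 genotypes did not overlap for 3 of the 6 genes (Pmp22, Prx and Cnp), an arrangement found for 34.5% of all genes. Prx was the 1 gene of the 6 with all DBA/2J pools lower, an order found for 17.2% of all genes. The RNA is from whole tissue, in which fewer cells of a type and less RNA per cell cannot be told apart.

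**Figure D1:**
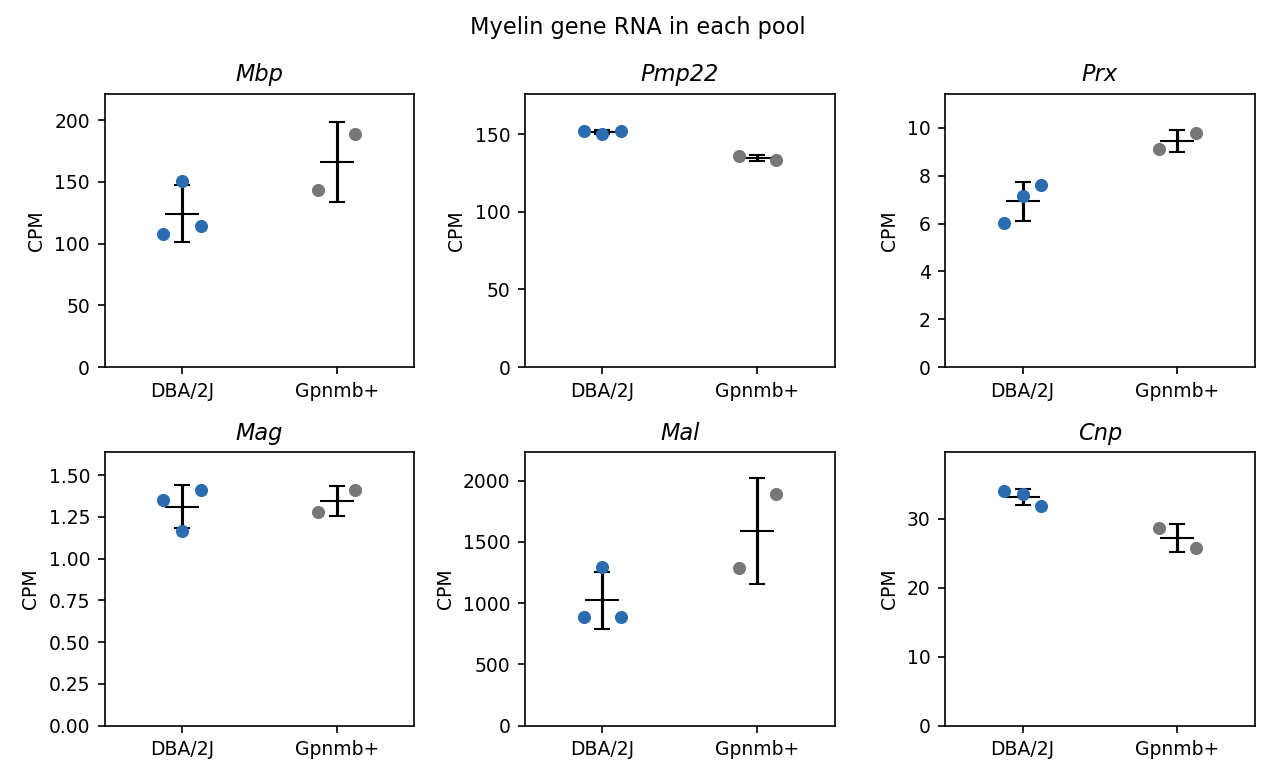
Level of each of the 6 myelin genes in CPM (counts scaled by TMM library size, linear axes starting at 0) in the 3 DBA/2J pools (blue) and 2 Gpnmb+ pools (gray), with the mean and SD as bars and points set side by side in pool order. Prx lies lower in all 3 DBA/2J pools (6.03 to 7.60 CPM) than in both Gpnmb+ pools (9.13 and 9.77). Pmp22 and Cnp lie higher in all 3 DBA/2J pools, and Mbp, Mag and Mal overlap between genotypes.

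The 6 genes differed widely in level. Counts were divided by the summed exon length of each gene and scaled to the same total in each pool (TPM, a level per length), so that genes of different length could be compared. In every pool the order was Mal, Pmp22, Mbp, Cnp, Prx and Mag. Mal, a tetraspan protein of lipid rafts that serves myelin and also transport to the apical membrane of epithelia, had 1491 ± 301 TPM (SD, n = 3) in DBA/2J and 2365 ± 621 TPM (SD, n = 2) in Gpnmb+. It made up 84.4% to 91.8% of the summed TPM of the 6 genes. Pmp22 had 152 ± 7.49 TPM (SD, n = 3) in DBA/2J, Mbp 52.6 ± 8.74 TPM and Cnp 33.9 ± 0.528 TPM in the same pools. Prx had 5.06 ± 0.754 TPM (SD, n = 3) and Mag 1.09 ± 0.148 TPM. Over all 5 pools the ranges of neighbours in this order did not overlap.

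The exon length of Mbp (9745 bases) includes exons of the golli transcripts, which start upstream of the classic myelin transcripts and are made in other cells too, and counts per gene do not separate them.

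**Figure D2:**
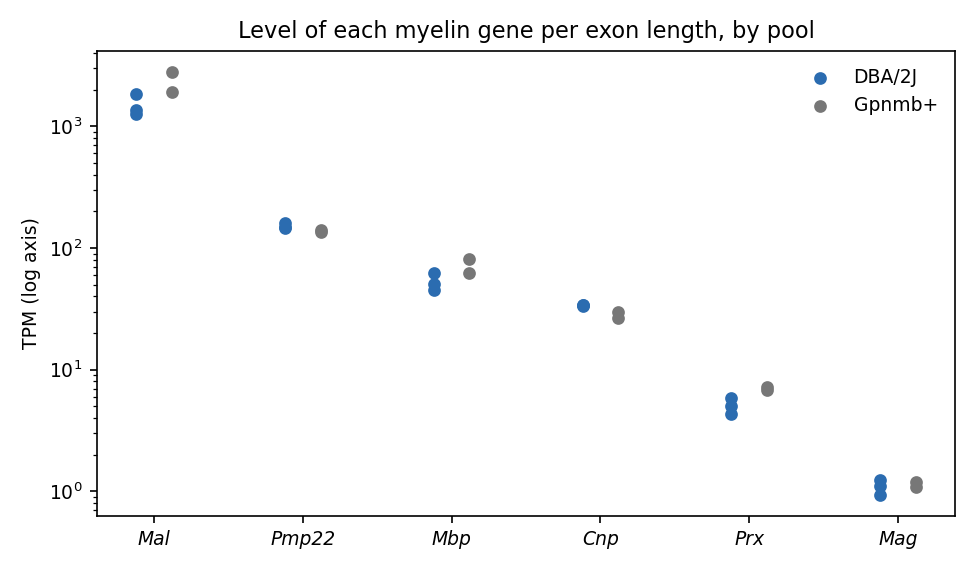
TPM of the 6 genes (log axis) in each DBA/2J pool (blue) and Gpnmb+ pool (gray). Levels run from about 1 TPM for Mag to 2804 TPM for Mal, and the order of the 6 genes is the same in all 5 pools.

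Among the genes of compact myelin, Mbp encodes the basic protein that joins the inner faces of the membrane. It lies on chromosome 18. Mbp counted 4802, 6485 and 5084 reads in DBA/2J (pools 1 to 3, the order kept below) against 7257 and 9238 in Gpnmb+ (pools 1 and 2). After scaling, DBA/2J pool 2 (151 CPM) lay above Gpnmb+ pool 1 (143 CPM), so the groups overlapped. The means were 124 ± 23.3 CPM (SD, n = 3) in DBA/2J and 166 ± 32.4 CPM (SD, n = 2) in Gpnmb+. Mbp thus had log2 fold change -0.42 (standard error, SE, 0.19, 95% interval -0.87 to 0.04, adjusted p = 0.351 in edgeR). Without Gpnmb+ pool 2 it was -0.20.

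Pmp22 encodes a tetraspan protein of compact myelin and is also made by fibroblasts and other cells. It lies on chromosome 11 of GRCm39 from 63019718 to 63050600. Pmp22 was the steadiest of the 6, with 6749, 6437 and 6782 reads in DBA/2J against 6901 and 6511 in Gpnmb+. All 3 DBA/2J pools, with a mean of 151 ± 1.14 CPM (SD, n = 3), lay above both Gpnmb+ pools (133 and 136 CPM), by little. The log2 fold change of 0.17 (SE 0.07, 95% interval -0.01 to 0.35, adjusted p = 0.340 in edgeR) did not pass, and its interval stays below a fold change of 1.5.

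Prx encodes periaxin, a scaffold that myelinating Schwann cells use to attach the outer membrane to dystroglycan through Drp2. It lies on chromosome 7 from 27196813 to 27219639. Prx counted 268, 307 and 339 reads in DBA/2J against 463 and 478 in Gpnmb+. The DBA/2J pools were all lower, at 6.93 ± 0.810 CPM (SD, n = 3) against 9.45 ± 0.457 CPM (SD, n = 2). Prx thus had log2 fold change -0.45 (SE 0.15, 95% interval -0.82 to -0.07, adjusted p = 0.249 in edgeR). It ranged from -0.52 to -0.36 with each pool left out in turn.

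Mag encodes an adhesion protein of the membrane facing the axon. It lies on chromosome 7 from 30598464 to 30614474. Mag was sparse, with 60, 50 and 63 reads in DBA/2J against 65 and 69 in Gpnmb+. The log2 fold change was -0.04 (SE 0.24, adjusted p = 0.953 in edgeR). A difference was not detectable at this depth, and the 95% interval of -0.62 to 0.54 leaves room for a change of about the size seen for Prx.

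Mal lies on chromosome 2 from 127475142 to 127498615. It counted 39455, 55497 and 39579 reads in DBA/2J against 65216 and 92677 in Gpnmb+. DBA/2J pool 2 (1293 CPM) and Gpnmb+ pool 1 (1285 CPM) were nearly equal, and Gpnmb+ pool 2 stood above the rest at 1895 CPM. The log2 fold change was -0.64 (SE 0.24, 95% interval -1.22 to -0.05, adjusted p = 0.280 in edgeR), the lowest of the 6. Without Gpnmb+ pool 2 it was -0.33.

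Cnp encodes the cyclic nucleotide phosphodiesterase of uncompacted myelin and is present at lower levels in many cells. It lies on chromosome 11 from 100465730 to 100482936. Cnp counted 1517, 1442 and 1421 reads in DBA/2J against 1457 and 1263 in Gpnmb+. The DBA/2J pools were higher, at 33.2 ± 1.19 CPM (SD, n = 3) against 27.3 ± 2.05 CPM (SD, n = 2). Cnp thus had log2 fold change 0.28 (SE 0.09, 95% interval 0.05 to 0.51, adjusted p = 0.239 in edgeR). Cnp shares 670 exon bases with Dnajc7 on the opposite strand, which had 4737 to 5266 counts, and since no source says whether counting used strand, part of the Cnp count is uncertain.

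The 6 genes did not share a pattern across the pools. Each gene's log2 CPM was taken relative to its own mean, and the root mean square distance between 2 such profiles over the 5 pools was used as the measure of likeness. The closest pair was Pmp22 and Cnp (distance 0.08), followed by Mbp and Mal (0.12), and the farthest was Mal and Cnp (0.54). The mean profile of the 6 was nearly flat, from -0.15 in DBA/2J pool 1 to 0.19 in Gpnmb+ pool 2. The 10 protein-coding genes closest to it, among 12367 with a mean log2 CPM of at least 2, were Rnf44, Dnajc19, Ppp6r2, Gstt3, Stx7, Mia2, Faxc, Pigh, Slc35f5 and Trub2, at distances from 0.015 to 0.025. For Mbp, 5862 of the genes compared lay closer to the mean profile than Mbp itself, and for Mal 9858 did.

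Looked at gene by gene, a choice made after the values were seen, Mal lay closest to AI661453, Defb1, Muc20, Chst9, Nectin4 and Cysrt1, at distances from 0.05 to 0.06 against a median of 0.43 over all genes compared. Defb1 encodes a defensin of epithelial surfaces, Muc20 a membrane mucin and Nectin4 an epithelial adhesion protein. Mbp lay closest to N4bp3, Ldaf1, B3gnt8, Naaladl2, Fgd3 and Scel (0.02 to 0.05), against a median of 0.32. In the lists described below, Mbp was at 0.11 from the Schwann cell list genes Id4 and Erbb3. It was at 0.14 from the epithelial marker Epcam and 0.23 from Aldh3a1. The other epithelial markers lay beyond that median of 0.32, as did Jun (0.66). These were Krt13 (0.35), Krt5 (0.39), Krt4 (0.39), Krt14 (0.79) and Krt12 (2.39). Mal lay close to Pllp, a myelin tetraspan also made by epithelia (0.07), and to Aldh3a1, an enzyme abundant in the corneal epithelium (0.15). Of the other epithelial markers, Epcam was at 0.22 from Mal. Krt5 (0.46), Krt13 (0.47), Krt4 (0.50), Krt14 (0.86) and Krt12 (2.31) lay farther from Mal than its median of 0.43. In the Schwann cell lists described below, Id4 (0.16) and Erbb3 (0.17) lay about as near to Mal as Aldh3a1, and Jun (0.75) and Sox2 (0.88) lay far. Prx lay closest to Parp6, Snapc5, Zc3h7a, Hdac9, Aadac and Brd3 (0.04 to 0.05), against a median of 0.28 over all genes compared. Among the other sheath genes its distances were 0.16 to Tspan2, 0.18 to Gldn, 0.22 to Drp2 and 0.26 to Gjc3, while Pllp (0.31), Ncmap (0.31) and the remaining 4 lay farther than that median. Dcn, a fibroblast gene, was at 0.09 from Prx.

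Aldh3a1 counted 42135, 70043 and 37930 reads in DBA/2J against 80971 and 103385 in Gpnmb+, high and low in the same pools as Mal. Of the 7 epithelial markers Aldh3a1 was the nearest to Mal (distance 0.15), so a steady ratio between them restates that likeness. It is not a separate result. The TPM of Mal relative to Aldh3a1 stayed between 0.662 and 0.872 in all 5 pools, the highest 1.32 times the lowest. For Mbp this ratio ran from 0.0216 to 0.0325, the highest 1.5 times the lowest. The same factor was 2.04 for Prx, 2.49 for Mag, 2.84 for Pmp22 and 3.07 for Cnp. Aldh3a1 itself ran from 1564 to 3743 TPM, against 136 to 161 for Pmp22 and 26.7 to 34.2 for Cnp. A gene that was steady across pools thus gets a large factor from the spread of Aldh3a1. The 7 markers of corneal and conjunctival epithelium were mixed, with a summed level of 5190 to 8502 CPM in DBA/2J and 7922 and 9944 CPM in Gpnmb+. Values were below 0 for 4, as for Mal. These were Aldh3a1 (log2 fold change -0.70), Krt5 (-0.13), the corneal keratin Krt12 (-3.16) and the epithelial adhesion gene Epcam (-0.36). For the last 2 each DBA/2J pool lay below both Gpnmb+ pools, an order found for 17.2% of all genes. Krt12 counted 11298, 4970 and 421 reads in DBA/2J against 86337 and 27106 in Gpnmb+. Krt14 (0.31), Krt13 (0.20) and Krt4 (0.13) had values above 0, and none of the 7 was called by edgeR. The part of epithelium in the levels of Mal and Mbp was not tested.

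**Figure D3:**
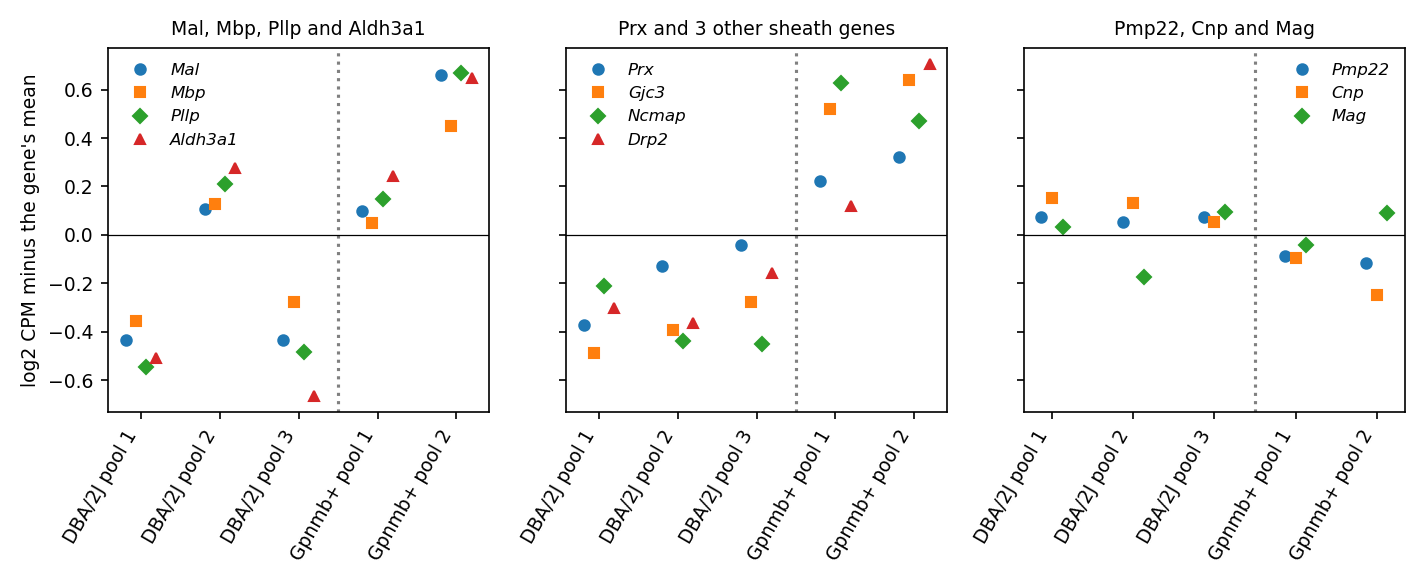
Log2 CPM of each gene minus its own mean over the 5 pools; the dotted line divides DBA/2J from Gpnmb+ pools. Mal, Mbp, Pllp and Aldh3a1 lie above 0 in DBA/2J pool 2 and both Gpnmb+ pools (left). They are highest in Gpnmb+ pool 2 and below 0 in DBA/2J pools 1 and 3. Prx, Gjc3, Ncmap and Drp2 lie below 0 in every DBA/2J pool and above 0 in both Gpnmb+ pools (middle). Of these, Ncmap and Drp2 were picked for lower values. In the left panel, Aldh3a1 is the epithelial marker nearest to Mal, so their likeness there is not a separate result. Pmp22, Cnp and Mag stay within 0.25 of their means (right).

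Other genes of the myelin sheath were read from a list of 10, all tested. Values were below 0 for 7 and above 0 for 3, with a median log2 fold change of -0.57, and 8 had an unadjusted p under 0.05 (15.9% of all genes did). Pools did not overlap for 5 of the lower and all 3 of the higher genes, as for 34.5% of all genes. edgeR and limma-voom called 0 of the 10, and DESeq2, which called 4.7% of all genes, called 5 (Ncmap, Cldn19, Gjc3, Drp2 and Nfasc). Gjc3, which encodes a connexin of Schwann cells, counted 61, 63 and 71 reads in DBA/2J against 142 and 149 in Gpnmb+, which gave log2 fold change -0.98 (SE 0.20, adjusted p = 0.101 in edgeR).

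Ncmap and Drp2, outside the naming rule, were picked after their values were seen, for being lower as Prx was. Ncmap, which encodes a protein of noncompact myelin, counted 78, 64 and 66 reads in DBA/2J against 161 and 139 in Gpnmb+, which gave log2 fold change -0.93 (SE 0.21, adjusted p = 0.115 in edgeR). Drp2, the partner of periaxin, counted 259, 239 and 287 reads in DBA/2J against 396 and 574 in Gpnmb+ (log2 fold change -0.72, SE 0.20, adjusted p = 0.179 in edgeR). For Gjc3, Ncmap and Drp2, as for Prx, each DBA/2J pool lay below both Gpnmb+ pools, an order found for 17.2% of all genes. Because Ncmap and Drp2 were picked for lower values, their order is not a separate result. Tspan2, nearer to Prx (0.16) than Ncmap (0.31), overlapped between the genotypes.

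The higher values belonged to Cldn19, a claudin of the Schwann cell paranode that epithelia also make (log2 fold change 1.64, adjusted p = 0.0820 in edgeR), Nfasc, a cell adhesion protein of the node of Ranvier (1.18, adjusted p = 0.110), and Gjb1, the connexin of Schwann cell incisures (0.93, adjusted p = 0.354). Cldn19 counted 1918, 2232 and 2566 reads in DBA/2J against 1100 and 532 in Gpnmb+. Gjb1 was near the detection limit, with 9 to 23 counts in a pool.

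**Figure D4:**
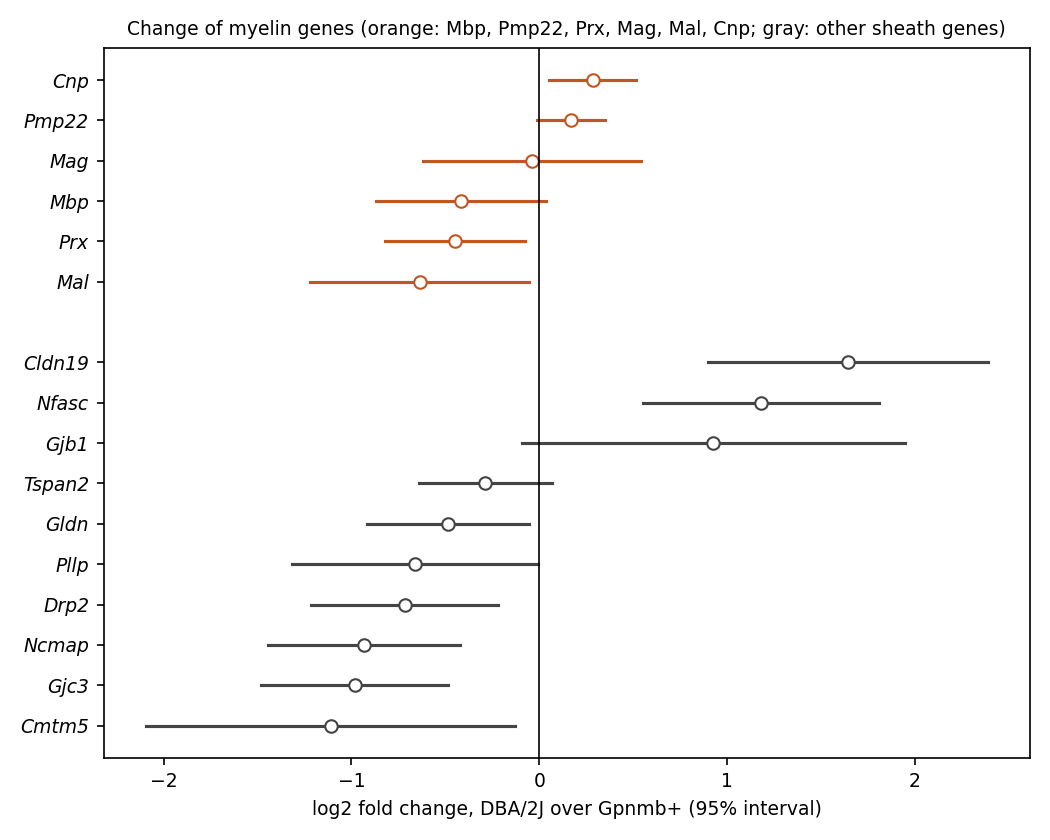
Log2 fold change of DBA/2J over Gpnmb+ with its 95% interval for the 6 genes (orange) and 10 other sheath genes (gray); open points are genes not called by edgeR. The 6 span -0.64 to 0.28, the other sheath genes span -1.11 to 1.64, and all points are open.

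In the enzymes of myelin lipid synthesis, 0 of 6 genes were called by edgeR and 0 by DESeq2. An unadjusted p under 0.05 was found for 2 (15.9% of all genes), and the median log2 fold change was -0.18. Cers2, which makes very long chain ceramides in many tissues, had a log2 fold change of 0.44 (adjusted p = 0.0784 in edgeR), and Fa2h, the fatty acid hydroxylase of myelin lipids, -1.41 (adjusted p = 0.248) with 7 to 41 counts in a pool. Gal3st1, which makes sulfatide, had -0.43 (adjusted p = 0.570). Ugt8a, which makes galactosylceramide, was sparse at 13 to 24 counts.

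Of 10 transcription factors of myelination, 9 were tested and edgeR called 0, while DESeq2 called 2, Sox10 and Myrf (4.7% of all genes). Unadjusted p-values under 0.05 were found for 2 (15.9% of all genes), and the median log2 fold change was -0.06. Sox10, which Schwann cells and melanocytes both need, counted 176, 143 and 231 reads in DBA/2J against 513 and 537 in Gpnmb+, which gave log2 fold change -1.34 (SE 0.21, adjusted p = 0.0571 in edgeR). Myrf, a regulator of central myelin genes, had -1.30 (adjusted p = 0.109). Egr2, the activator of Schwann cell myelin genes and also an early response gene, had 1125 counts in DBA/2J pool 1 and 150 to 255 in the other pools, and its log2 fold change of 1.84 (SE 0.80, adjusted p = 0.341 in edgeR) was 0.64 without that pool.

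Among 11 genes of axonal and matrix signals to Schwann cells, edgeR called 1 (0.796% of all genes were called). An unadjusted p under 0.05 was found for 4 (15.9% of all genes), and the median log2 fold change was -0.03. Lgi4, a secreted Schwann cell protein needed for myelination, fell. It counted 723, 818 and 866 reads in DBA/2J against 1813 and 1581 in Gpnmb+, which gave log2 fold change -0.90 (SE 0.12, adjusted p = 0.0416 in edgeR). The call was lost with any pool left out (adjusted p from 0.0871 to 0.140). In the list of immature and repair Schwann cell genes 9 of 11 were tested. edgeR called 0, and DESeq2, which called 4.7% of all genes, called 2 (Sox2 and Gdnf). An unadjusted p under 0.05 was found for 3 (15.9% of all genes), and the median was -0.15. Sox2, a marker of immature Schwann cells and of other progenitors, had a log2 fold change of 1.06 (adjusted p = 0.0721 in edgeR), Gdnf, a trophic factor, -0.84 (adjusted p = 0.111), and Id2, an inhibitor of differentiation, -0.25 (adjusted p = 0.297).

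Most defining markers of oligodendrocytes, the myelin cells of the brain and optic nerve, were at or near 0. Opalin and Hapln2 had 0 counts in every pool, which allows up to 3 counts a pool, Olig2 had 0 or 1, Mog 0 to 3 and Klk6 2 to 5. Mobp had 4 to 13 counts in 4 pools and 52 in Gpnmb+ pool 2. Ermn was the exception at 287 to 1145 counts, and was called by DESeq2 and not by edgeR (log2 fold change -1.12). Of the 7 markers only Ermn and Mobp reached the count minimum, and their summed level of 6.55 to 10.04 CPM in DBA/2J against 13.8 and 24.5 CPM in Gpnmb+ is nearly all Ermn (6.46 to 9.80 against 13.6 and 23.4 CPM).

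Markers of other cell types had values in both directions. For the counts below, edgeR called 0.796% of all genes, DESeq2 called 4.7%, and 15.9% had an unadjusted p under 0.05. The 5 markers of nonmyelinating Schwann cells summed to 322 to 391 CPM in DBA/2J and 227 and 273 CPM in Gpnmb+, with 0 called by edgeR, 3 at an unadjusted p under 0.05 and 1 called by DESeq2, Matn2 (log2 fold change 1.26), which fibroblasts also make. Matn2 and Scn7a (0.34) carried that sum, while Cdh19 (-0.53), Gfra3 (-0.52) and L1cam (-0.20) had values below 0, and the list's median was -0.20. Axon markers summed to 19.1 to 32.8 CPM in DBA/2J and 68.0 and 112 CPM in Gpnmb+, and 1 of the 6 was called by edgeR, the neurofilament gene Nefm (log2 fold change -2.77, adjusted p = 0.0444), while DESeq2 also called Nefl (-1.76). Nefm and Nefl carried that sum. Prph (0.46) and Uchl1 (0.27) had values above 0, Tubb3 (-0.02) and Nefh (-0.21) below, and the list's median was -0.12. Melanocyte markers summed to 3511 to 4611 CPM and 3808 and 4376 CPM, with 1 of 8 called, Slc45a2 (-2.46, adjusted p = 0.0262 in edgeR), and Pmel called by DESeq2 as well. Summed levels overlapped between the genotypes for fibroblasts (4984 to 5211 CPM against 4971 and 5394), endothelium (277 to 389 against 297 and 326), lens fibers (16.5 to 21.5 against 14.8 and 17.6) and photoreceptors (207 to 300.4 against 126 and 725). T cell markers summed to 11.9 to 16.2 CPM in DBA/2J and 10.7 and 11.4 CPM in Gpnmb+. edgeR called 0 genes in these 5 lists and the epithelial list, with 4 at an unadjusted p under 0.05, and DESeq2 called Col1a2. The part of these cell types in the myelin gene levels was not tested.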

How the data were processed

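RNA-seq libraries of 5 pools of mouse iridocorneal angle were analysed. The authors enriched mRNA with a Kapa mRNA HyperPrep kit, sequenced paired-end reads, used fastp for trimming and STAR for alignment (GRCm39), and summed the reads with a single genomic position over genes. The deposited counts are not normalized. Tool versions and counting strand are not given in the sources used here. Names, positions and exon lengths came from GENCODE M39 (GRCm39), which held 56323 of 56941 identifiers.

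Genes reaching 10 counts in any 1 pool were scaled by TMM and tested with edgeR 4.0.16 in R 4.3.3, with no covariate. limma 3.58.1 and DESeq2 1.42.0 were alternatives, with other scalings and filters, the pool number as a block and each pool left out. Without a Gpnmb+ pool, the lone library is assumed to vary like the others. Scripts were tested on simulated data. Log2 CPM used a prior count of 2. Intervals cover variation between pools, not between mice in a pool.

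The 6 genes and all lists were chosen with earlier results of these data known. Named genes were the 6, the genes called in each related list or otherwise the 3 of smallest adjusted p, marker genes, and the 10 nearest profiles. Figures used Python 3.11.15 and matplotlib 3.10.9. A few genes of the lists were left out and are not reported here.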

Additional observations from a re-analysis of the deposited data

How the results depend on the processing

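For the 6 myelin genes 0 were called under every alternative tried, and their directions held except for Mag, whose log2 fold change was 0.037 without DBA/2J pool 2 and 0.032 without Gpnmb+ pool 2. With each pool left out the log2 fold change ran from -0.60 to -0.20 for Mbp, 0.15 to 0.19 for Pmp22, -0.52 to -0.36 for Prx, -0.11 to 0.04 for Mag, -0.89 to -0.33 for Mal and 0.21 to 0.36 for Cnp, and the median of the 6 from -0.30 to -0.08. The scalings moved the median of all genes by under 0.03 on the log2 scale.

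The number of all genes called was 157 by edgeR (99 higher and 58 lower in DBA/2J), 927 by DESeq2 (545 and 382) and 360 with no count filter (242 and 118). With 1 pool left out it ran from 1 to 217, from 0 to 150 higher and from 1 to 67 lower. Of the other sheath genes, 0 were called by edgeR, 5 by DESeq2 and 1 with no count filter, and 0 to 2 with 1 pool left out (Cldn19 and Nfasc without Gpnmb+ pool 1). Of the transcription factors, 2 were called by DESeq2, 1 by limma-voom and 1 with no count filter, and of the immature and repair genes 2 by DESeq2. Of the axonal and matrix signals 0 were called with any pool left out.

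Pools 1 and 2 of both genotypes share a number that no label ties to a litter, batch or day, and the deviations of same-numbered pools correlated at 0.28 and 0.25 across genes. With the replicate block 0 of the 6 myelin genes, 220 of all genes, 100 of them lower in DBA/2J, 2 transcription factors and 0 axonal and matrix signals were called. The causes of these shifts were not tested. Depth limits Mag, Gjb1, Fa2h and Ugt8a, and outliers cannot be judged in groups of 2 and 3.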
